A study of Mus musculus with 12 samples.

Results

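The 34 genes described here answer 2 kinds of stress, unfolded protein in the endoplasmic reticulum (ER) and shortage of amino acids. They were taken as a list by name, and the list was chosen with earlier results of these data known. It held 15 ER chaperones and folding enzymes, 4 genes of ER-associated degradation and 4 stress sensors and transcription factors. The other 11 were targets of the transcription factor ATF4. All 34 were among the 23383 genes that could be joined across the count files. RNA had been sequenced from bone marrow cells of C57BL/6 mice sorted as common myeloid progenitors (CMP) or as LSK cells, the fraction that holds the blood stem cells. The mice were homozygous for loss of the +42 kb enhancer of Cebpa, which encodes a transcription factor needed to form granulocytes and monocytes, or were wild type. This gave 4 groups of 3 libraries, namely enhancer-null CMP, wild-type CMP, enhancer-null LSK and wild-type LSK. The labels name no restriction of the deletion to a cell type, and they give neither age nor sex. They also do not say whether libraries came from separate mice, so p-values measure the spread between these libraries.

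When unfolded protein builds up in the ER, sensors in its membrane, among them IRE1 (Ern1) and ATF6, turn on genes for chaperones, folding enzymes and disposal of misfolded protein, partly through the transcription factor XBP1. A further sensor, and kinases that sense a lack of amino acids, phosphorylate the initiation factor eIF2 alpha, which slows translation in general while translation of ATF4 goes up. ATF4 then turns on genes for the making and uptake of amino acids. Blood stem cells are known for low rates of protein synthesis, and myeloid progenitors make large amounts of granule protein that passes through the ER.

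Some promoters in both groups of genes carry known elements, and 6 windows are shown. Hspa5, Canx and Pdia6 show the chaperone element in the most abundant member, in a gene that passed a test below and in one that did not, and Asns shows the ATF4 target element. Each is the last 150 of the 250 bases before the RefSeq gene start in build GRCm38.p6, written 5′ to 3′ on the strand of the gene. Capitals mark the fixed letters of the ER stress element (ERSE, CCAAT and CCACG with 9 bases of any kind between them) in the first 3 and of the element bound by C/EBP and ATF factors (CARE, TGATGNAA) in the last. Pdia4 and Dnajb9 are shown as chaperone genes that changed between cell types and held neither motif.
Hspa5, chr2:34771940-34772089, plus strand: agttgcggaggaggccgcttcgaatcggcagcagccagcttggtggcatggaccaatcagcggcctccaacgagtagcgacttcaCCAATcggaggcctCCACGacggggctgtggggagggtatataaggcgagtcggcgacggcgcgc
Canx, chr11:50325674-50325823, minus strand: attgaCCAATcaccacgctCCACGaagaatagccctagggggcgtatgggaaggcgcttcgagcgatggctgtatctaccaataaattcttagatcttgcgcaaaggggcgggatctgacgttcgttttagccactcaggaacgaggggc
Pdia6, chr12:17266439-17266588, plus strand: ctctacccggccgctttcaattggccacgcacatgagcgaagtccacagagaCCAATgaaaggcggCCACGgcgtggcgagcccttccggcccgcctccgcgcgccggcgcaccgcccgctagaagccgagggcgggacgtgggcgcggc
Pdia4, chr6:47813513-47813662, minus strand: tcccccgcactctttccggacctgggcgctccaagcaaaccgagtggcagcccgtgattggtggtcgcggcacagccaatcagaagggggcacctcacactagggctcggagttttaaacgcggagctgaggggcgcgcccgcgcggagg
Dnajb9, chr12:44210069-44210218, minus strand: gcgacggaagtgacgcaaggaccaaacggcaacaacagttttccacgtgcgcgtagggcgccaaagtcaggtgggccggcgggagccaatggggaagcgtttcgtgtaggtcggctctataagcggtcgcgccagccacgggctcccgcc
Asns, chr6:7693210-7693359, minus strand: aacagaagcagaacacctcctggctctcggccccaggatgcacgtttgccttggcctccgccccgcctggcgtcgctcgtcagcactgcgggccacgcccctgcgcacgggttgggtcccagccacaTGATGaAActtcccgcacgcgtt

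Of the 34 genes, 31 had a RefSeq window, while Atf6, Hyou1 and Manf had none and were not searched. On either strand of the full 250 bases, ERSE was matched in 7 of 13 chaperone genes with a window (Hspa5, Hsp90b1, Calr, Canx, Pdia6, Dnajc3 and Creld2), in Syvn1 of the 4 degradation genes, and in 0 of 11 ATF4 targets. Over all 27025 genes with a window, 0.130% held it. The related ERSE-II, ATTGG and CCACG with 1 base of any kind between them, was found in Herpud1 alone among the members and in 0.0370% of all genes. CARE was matched in 4 of 11 ATF4 targets, namely Asns, Chac1, Slc7a11 and Vldlr, and also in Herpud1, against 3.91% of all genes. The core of the XBP1 element, TGACGTGG, was in no member window and in 0.603% of all genes. No matches shared bases. A match describes letters in a window and is not a measured binding site.

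**Figure D1:**
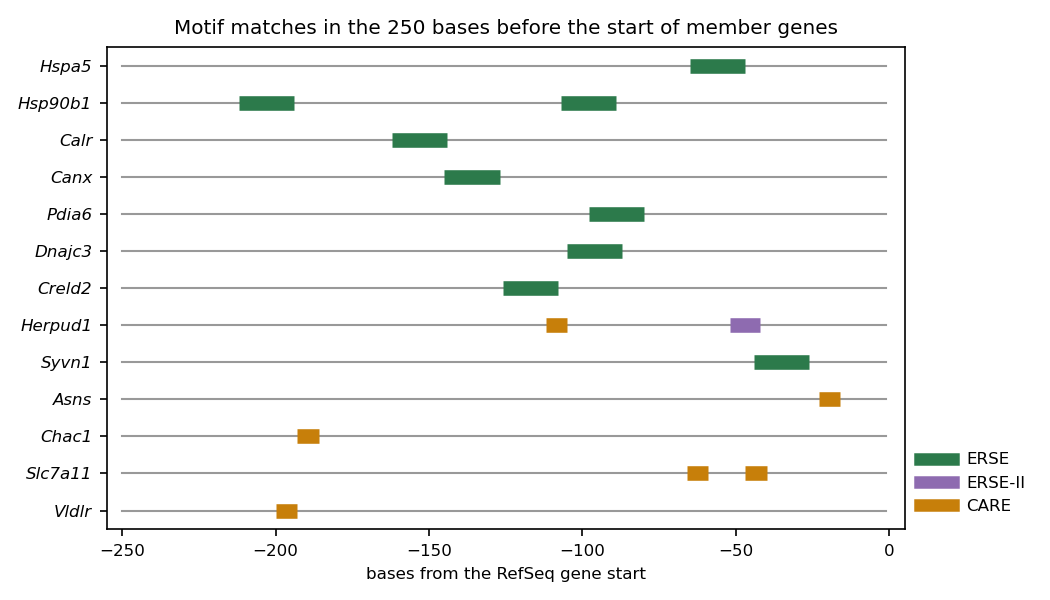
Motif matches in the 13 member genes that had one, along the 250 bases before the RefSeq gene start (x axis, in bases; each row is a gene; bar colour gives the motif). ERSE bars sit on 7 chaperone genes and Syvn1, ERSE-II on Herpud1, and CARE bars on 4 ATF4 targets and Herpud1.

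Gene counts per library ran from 6157633 to 49056415, and levels below are in CPM, the usual scale of counts relative to library size, after scaling by the trimmed mean of M values. A floor of 3 counts was 0.0612 to 0.487 CPM. Cebpa was at 0, 0.147 and 0 CPM in enhancer-null CMP libraries 1, 2 and 7, against 17.3, 15 and 30.0 CPM in wild-type CMP libraries 1, 6 and 8. It was at 0.0768, 0 and 0.302 CPM in enhancer-null LSK libraries 1, 2 and 7, against 6.51, 8.24 and 2.46 CPM in wild-type LSK libraries 1, 6 and 8. All values below follow this order of libraries. The stem cell surface gene Ly6a, which encodes Sca-1, was at most 12.8 CPM in any CMP library and at least 134 CPM in any LSK library, while Slamf1, another stem cell marker, reached 28.2 CPM in 1 enhancer-null LSK library and at most 2.52 CPM in the other 11. Some well expressed genes had no count in single libraries: of the genes that averaged 10 CPM or more, 3.58% were at 0 in enhancer-null CMP library 1 and 1.82% in wild-type LSK library 6. The file of wild-type CMP library 6 listed other symbols than the remaining 11. By Xist and Y-linked counts, 4 of 6 enhancer-null and 2 of 6 wild-type libraries carried a male pattern, and the pattern matched in all 6 pairs of a CMP and an LSK library with the same genotype and number. In bulk samples, fewer cells of a type and less RNA per cell cannot be told apart.

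Per kilobase of exon, the most abundant member over the 12 libraries was Hspa5, which encodes the main ER chaperone BiP, with a mean of 411 CPM per kb. Pdia3, a disulfide isomerase of glycoprotein folding, followed at 354 CPM per kb, then P4hb, the founding disulfide isomerase, at 249 and Canx, the lectin chaperone calnexin, at 218 CPM per kb. The first 7 ranks were all chaperones. Phgdh, the first enzyme of serine synthesis, was the highest ATF4 target at 166 CPM per kb. Ern1 lay at 1.62, Chac1, a glutathione-degrading enzyme, at 0.0998 and Slc7a11, the cystine transporter, at 0.0473 CPM per kb. Chac1 had no count in 8 libraries and Slc7a11 none in 4. Neither passed the filter on low counts, so that 32 of the 34 genes were tested in each comparison.

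The clearest pattern was in the chaperones, and it was a difference between cell types in wild-type mice. Chaperone genes took a larger share of the counts in wild-type CMP than in wild-type LSK, while in enhancer-null mice the summed share of the cell types overlapped. Summed over the 15 chaperones, the level was 5853, 6249.8 and 6735 CPM in enhancer-null CMP, against 8862, 7198 and 8101 CPM in wild-type CMP. It was 5819.8, 6524 and 5995 CPM in enhancer-null LSK, against 5475, 5218 and 6128 CPM in wild-type LSK. By this sum, which the most abundant genes carry, every wild-type CMP library lay above the other 9 libraries. The median over the 15 genes of log2(CPM + 1) was 7.60 to 7.71 in enhancer-null CMP and 7.93 to 8.20 in enhancer-null LSK, lower in CMP without overlap. In every library of both CMP groups and of enhancer-null LSK, the middle gene was Pdia4, so these medians restate a single gene. By them wild-type CMP library 6, at 8.10, lay below enhancer-null LSK library 2, at 8.20. The median log2 fold change of the 15 chaperones between CMP and LSK in enhancer-null mice was -0.07, with 6 above 0. Of the 15 chaperones, 13 had their highest group mean in wild-type CMP, with Dnajb9 (wild-type LSK) and Dnajc3 (enhancer-null LSK) as the exceptions. Of the 11 ATF4 targets, 5 were highest in wild-type CMP (Asns, Psat1, Phgdh, Shmt2 and Mthfd2), 4 in wild-type LSK and 2 in enhancer-null CMP. The share of all genes highest in each group was not counted, so the counts for both lists have no background.

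**Figure D2:**
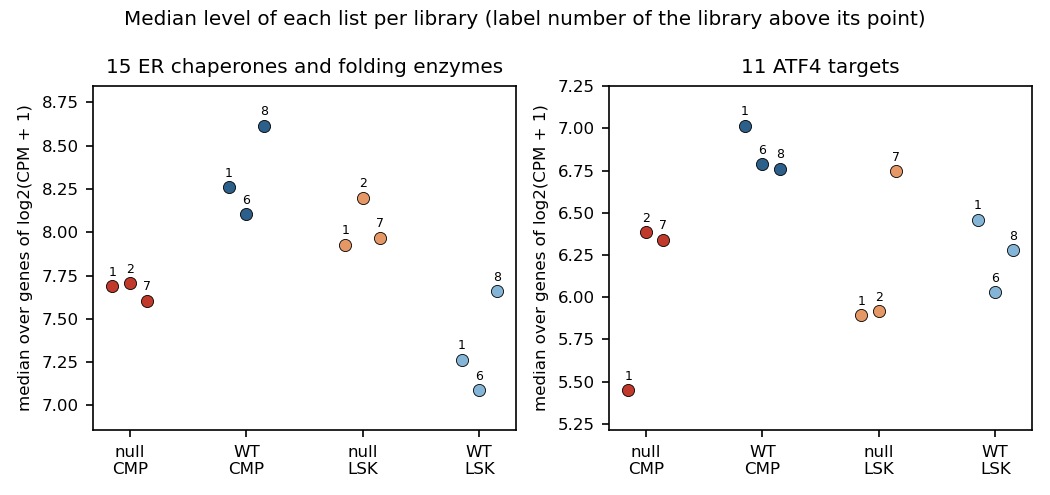
Median over genes of log2(CPM + 1) in each library (y axis), for 15 chaperones (left) and 11 ATF4 targets (right), with 3 libraries in each of 4 groups (x axis) and the library's label number above its point. For chaperones, enhancer-null CMP lies at 7.60 to 7.71 and wild-type CMP at 8.10 to 8.62, while enhancer-null LSK lies at 7.93 to 8.20 and wild-type LSK at 7.09 to 7.66. In both CMP groups and enhancer-null LSK each chaperone median is the value of Pdia4. For ATF4 targets, enhancer-null CMP lies at 5.45 to 6.38 and wild-type CMP at 6.76 to 7.02, while the LSK groups overlap.

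In the wild-type comparison of CMP with LSK, 7 of the 32 tested genes passed an adjusted p of 0.05 in edgeR (quasi-likelihood test, p-values adjusted by Benjamini-Hochberg over all genes), against 4.20% of all 12027 genes tested. Of these, 5 were higher in CMP (Canx, P4hb, Pdia4, Hyou1 and Asns) and 2 were lower (Dnajb9 and Ppp1r15a), against 2.15% and 2.05% of all genes. The groups did not overlap for 15 genes that were higher in CMP, 46.9% of the members tested, against 15.9% of all genes. They did not overlap for 4 genes that were lower, 12.5% of the members, against 17.4% of all genes. The median log2 fold change was 0.66 over the 15 chaperones, 0.24 over 9 ATF4 targets and -0.01 over all genes. The chaperone median was thus higher than the ATF4 target median by 0.42, with 14 of 15 chaperones and 6 of 9 ATF4 targets above 0.

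Among the chaperones, Hyou1, a large ER chaperone also known as GRP170, was at 126, 146 and 150.5 CPM in wild-type CMP, against 47.2, 55.5 and 70.5 CPM in wild-type LSK. The groups did not overlap, and the log2 fold change was 1.34 (SE 0.232, adjusted p = 0.0246 in edgeR's test). Pdia4, a disulfide isomerase, was at 305, 274 and 391 CPM in wild-type CMP, against 153, 125 and 171 CPM in wild-type LSK. Its wild-type CMP libraries were all higher (log2 fold change 1.17, SE 0.202, adjusted p = 0.0249).

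Canx was at 1408, 1184 and 1432 CPM in wild-type CMP, against 735, 668 and 813 CPM in wild-type LSK. All 3 CMP libraries lay above all 3 LSK libraries, with a log2 fold change of 0.92 (SE 0.127, adjusted p = 0.0141). P4hb was at 963, 826 and 1026 CPM in wild-type CMP, against 525, 571 and 591 CPM in wild-type LSK. It too was higher without overlap, by 0.79 (SE 0.130, adjusted p = 0.0218). Hspa5, the most abundant of the list, was at 1798, 1493 and 1747 CPM in wild-type CMP, against 1584, 1542 and 1439 CPM in wild-type LSK. These groups overlapped, and the log2 fold change of 0.20 did not pass the test (SE 0.108, adjusted p = 0.365).

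Dnajb9, an ER co-chaperone that binds BiP and represses IRE1, went the other way. It was at 27.0, 18.2 and 25.2 CPM in wild-type CMP, against 67.9, 69.1 and 58.0 CPM in wild-type LSK. The log2 fold change was -1.41 (SE 0.308, adjusted p = 0.0488), and the groups did not overlap. Among chaperones that missed the threshold, the wild-type CMP libraries were all higher for Hsp90b1 (the ER form of HSP90), Calr (calreticulin), Dnajb11, Sdf2l1, Manf and Creld2. Their log2 fold changes were 0.51 to 1.12 and their adjusted p-values 0.0508 to 0.339. For Pdia3, Pdia6 and Dnajc3, a co-chaperone of BiP, the groups overlapped, with log2 fold changes of 0.35 to 0.53. Counts of Hsp90b1, Manf, Pdia6, Pdia3, Shmt2 and Syvn1 may include reads of genes on the opposite strand that share 18 to 270 exon bases with them, since the strand setting is not given. The same holds for Dnajb9 over 14 bases and for Ppp1r15a over 11 bases.

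Of the ATF4 targets, Asns, which makes asparagine, was at 129.8, 179 and 155 CPM in wild-type CMP, against 16.3, 35.2 and 22.4 CPM in wild-type LSK. All CMP libraries lay above all LSK libraries, and the log2 fold change was 2.70 (SE 0.343, adjusted p = 0.0116), the largest of the 7. Ppp1r15a encodes GADD34, the phosphatase subunit that reverses eIF2 alpha phosphorylation. It was at 138, 109 and 112 CPM in wild-type CMP, against 363, 280.3 and 251 CPM in wild-type LSK, lower without overlap by a log2 fold change of -1.26 (SE 0.197, adjusted p = 0.0198). Mthfd2, a mitochondrial folate enzyme, was at 76.8, 73.4 and 54.9 CPM in wild-type CMP, against 24.4, 3.28 and 25.6 CPM in wild-type LSK. It did not overlap but missed the threshold (log2 fold change 2.01, SE 0.686, adjusted p = 0.152). Vldlr, the receptor of very-low-density lipoprotein, was at 2.16, 6.07 and 0 CPM in wild-type CMP, against 87.0, 64.3 and 168 CPM in wild-type LSK, a log2 fold change of -5.22 (SE 1.27, adjusted p = 0.0674). Its LSK libraries were all far above the CMP libraries in spite of the p-value. Psat1, of serine synthesis, and Shmt2, of serine and folate metabolism in mitochondria, were higher without overlap at 0.58 and 0.69 (adjusted p = 0.234 and 0.116). Slc3a2, the heavy chain of amino acid transporters, was lower without overlap at -0.40 (adjusted p = 0.375).

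None of the 4 sensors and transcription factors passed the test, and 3 of them had log2 fold changes below 0 (Xbp1, Atf4 and Ern1). Xbp1 was at 209.6, 209 and 203 CPM in wild-type CMP, against 187, 362 and 294 CPM in wild-type LSK, with overlap (log2 fold change -0.39, adjusted p = 0.441). Atf4 was at 166, 127 and 152 CPM in wild-type CMP, against 228, 275 and 144 CPM in wild-type LSK, also with overlap (-0.49, adjusted p = 0.355). Ern1 was at 12.5, 15.5 and 10.2 CPM in wild-type CMP, against 12.9, 28.1 and 31.6 CPM in wild-type LSK, and overlapped as well (-0.88, adjusted p = 0.445). Gene counts do not show splicing of Xbp1 or translation of Atf4, the steps at which these factors are mainly controlled. Atf6 was erratic, at 60.1, 75.2 and 10.2 CPM in wild-type CMP, against 43.1, 0.210 and 32.4 CPM in wild-type LSK. Of the degradation genes, Edem1, which marks glycoproteins for disposal, was higher in wild-type CMP without overlap at 0.86 (adjusted p = 0.0646), and Herpud1, Sel1l and Syvn1 lay between -0.23 and -0.08.

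These calls depended on single libraries, as did the calls over all genes. Without wild-type CMP library 1 only Asns passed, against 0.815% of all genes, and without wild-type LSK library 1 again only Asns, against 1.34%. Without wild-type CMP library 6 only Canx passed, against 0.534% of all genes, and without wild-type CMP library 8 none did, against 0.420%. Without wild-type LSK library 8, 4 of the 32 members passed, against 1.38% of all genes, and without wild-type LSK library 6, 13 did, against 6.82%. In each of these fits the 7 genes kept their direction. With wild-type CMP library 6 and wild-type LSK library 6 both left out, a setting chosen after the data were seen, 3 members passed (Canx, P4hb and Asns), against 1.55% of all genes. With sex as a covariate 5 passed, Pdia4 and Dnajb9 not among them, against 2.37% of all genes. In a single fit of all 12 libraries 8 passed, against 3.80% of all genes, with Hsp90b1 and Calr added and Asns lost (adjusted p = 0.224). With the library number as a block, which the labels do not say marks a mouse, 3 passed (Canx, Asns and Ppp1r15a), against 1.10% of all genes. DESeq2 called 15 members, among them all 7, against 13.4% of all genes.

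In enhancer-null mice, 0 of 32 members passed the same test between CMP and LSK, as did 0.00% of all 11266 genes. At an unadjusted p under 0.05 there were 2 members, 1 in each direction, against 6.92% of all genes, and DESeq2 called 1 member, Vldlr, against 1.82% of all genes. The groups did not overlap for 3 genes that were higher in CMP, 9.38% of members, against 7.58% of all genes, and for 5 that were lower, 15.6% of members, against 9.26%. The chaperone median was -0.07, with 6 of 15 above 0, the ATF4 target median -0.12 and the median of all genes -0.01. Pdia4 was at 205, 208 and 194 CPM in enhancer-null CMP, against 243, 293 and 249 CPM in enhancer-null LSK, here lower in CMP without overlap (log2 fold change -0.37, SE 0.168, adjusted p = 0.758). Calr was the chaperone with the smallest p and was higher in CMP without overlap, at 513, 415 and 532 CPM in enhancer-null CMP, against 346, 339 and 365 CPM in enhancer-null LSK (0.48, SE 0.142, adjusted p = 0.514). Dnajc3 was lower in CMP without overlap, at 120.1, 152 and 61.5 CPM in enhancer-null CMP, against 229.6, 173 and 169 CPM in enhancer-null LSK (-0.77, SE 0.347, adjusted p = 0.752). Hspa5 was at 1222, 1523 and 1534 CPM in enhancer-null CMP, against 1374, 1864 and 1408 CPM in enhancer-null LSK, with overlap (-0.11, adjusted p = 0.963).

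For Asns, Vldlr, Calr, Dnajb9 and Slc3a2 the cell types did not overlap in either genotype, with the same direction in both. The share of all genes that did the same was not counted, so this number of members has no background. Dnajb9 was at 28.1, 26.3 and 27.0 CPM in enhancer-null CMP, against 37.6, 49.98 and 28.6 CPM in enhancer-null LSK, a narrow margin. Slc3a2 was at 52.0, 104 and 97.8 CPM in enhancer-null CMP, against 123, 114 and 111 CPM in enhancer-null LSK. Asns was at 25.7, 160.1 and 80.1 CPM in enhancer-null CMP, against 0, 15.8 and 16.5 CPM in enhancer-null LSK, without overlap but with wide spread (log2 fold change 3.06, SE 1.46, adjusted p = 0.781). Vldlr was at 0.461, 4.31 and 0.122 CPM in enhancer-null CMP, against 76.0, 59.5 and 119 CPM in enhancer-null LSK (-5.63, SE 1.24, adjusted p = 0.335). Mthfd2 was at 44.8, 44.5 and 18.8 CPM in enhancer-null CMP, against 13.3, 20.6 and 31.6 CPM in enhancer-null LSK, with overlap (0.73, SE 0.581, adjusted p = 0.908). For neither Asns nor Vldlr did the step differ detectably between genotypes, with a difference of 0.41 (SE 1.43) for Asns and -0.36 (SE 1.63) for Vldlr.

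**Figure D3:**
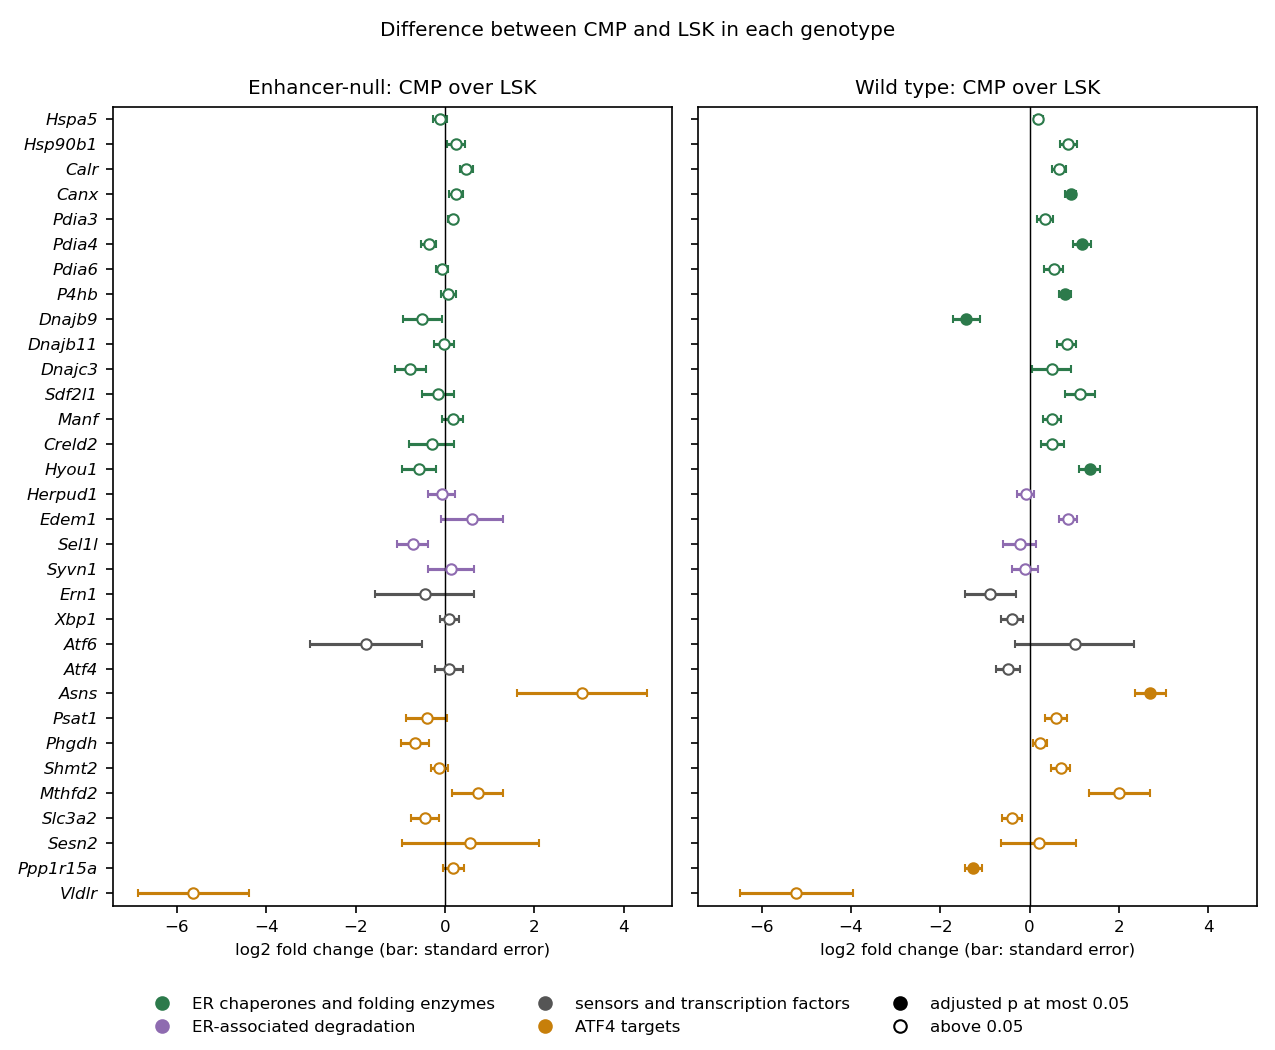
Log2 fold change of CMP over LSK (x axis, bar: standard error) for the 32 tested members (rows) in enhancer-null mice (left) and wild-type mice (right), with filled points for an adjusted p of at most 0.05. In enhancer-null mice the chaperones scatter around 0 and no point is filled, while in wild-type mice 14 of 15 chaperones lie above 0 and 7 points are filled.

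The difference between the 2 steps was tested as an interaction, which equals the genotype difference in CMP minus that in LSK. A single member passed, Pdia4, against 0.292% of all 12684 genes. Its interaction was -1.47 on the log2 scale (SE 0.258, adjusted p = 0.0356). The Pdia4 values given above show both sides of it: in CMP the enhancer-null libraries were all lower than wild type, and in LSK they were all higher. The call was kept in 2 of 12 fits that left out 1 library each, without enhancer-null CMP library 2 and without wild-type LSK library 8, and over all 12 its adjusted p ran from 0.0264 to 0.123 with the value at -1.68 to -1.36. When sex was added to the fit, Pdia4 had an adjusted p of 0.0606 and no member passed, against 0.229% of all genes. With the library number as a block it had an adjusted p of 0.0973 and again no member passed, against 0.0552% of all genes. DESeq2 called 3 members, Pdia4, Hyou1 and Ppp1r15a, against 1.47% of all genes. At an unadjusted p under 0.05, 8 members were lower and 1 was higher, 25% and 3.13% of members, against 3.10% and 4.54% of all genes. The median interaction was -0.61 over the chaperones, with 14 of 15 below 0. It was -0.36 over the ATF4 targets, with 5 of 9 below 0, and 0.01 over all genes.

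Hyou1 had the lowest interaction value of the chaperones, -1.86, which did not pass (SE 0.467, adjusted p = 0.207). It was at 38.2, 82.5 and 106 CPM in enhancer-null CMP and 126, 146 and 150.5 CPM in wild-type CMP, and at 123, 97.2 and 122 CPM in enhancer-null LSK and 47.2, 55.5 and 70.5 CPM in wild-type LSK. As for Pdia4, the enhancer-null libraries were all lower in CMP and all higher in LSK. Dnajb11, an ER co-chaperone of BiP, had the same arrangement at smaller size. It was at 123, 139 and 157 CPM in enhancer-null CMP and 199, 159 and 178 CPM in wild-type CMP, and at 133, 165 and 129 CPM in enhancer-null LSK and 93.3, 95.1 and 126 CPM in wild-type LSK. Its interaction of -0.78 did not pass (SE 0.288, adjusted p = 0.489). Ppp1r15a had the opposite sign, with an interaction of 1.52 (SE 0.310, adjusted p = 0.0820).

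**Figure D4:**
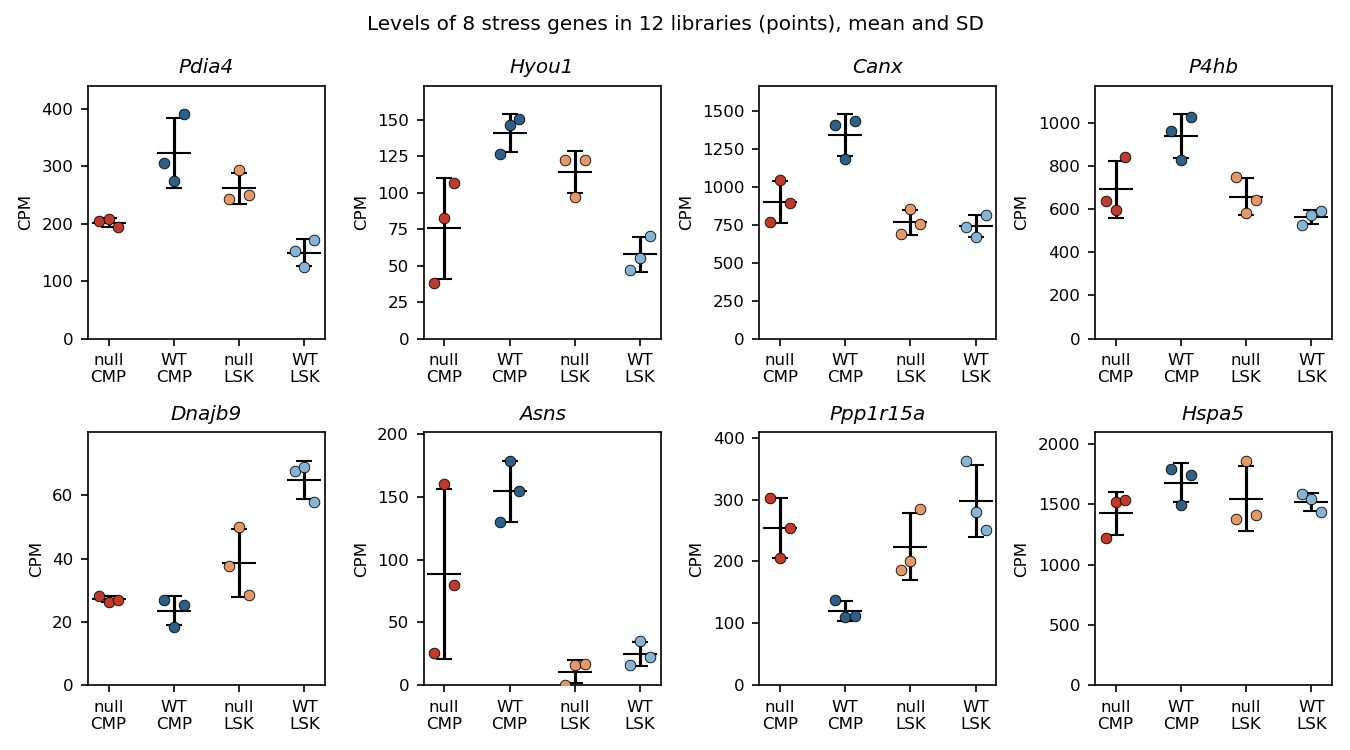
Level in CPM (y axis) of 8 members in the 12 libraries, with points for libraries and bars for mean and SD of the 3 libraries of each group (x axis). For Pdia4 and Hyou1 the enhancer-null points lie below wild type in CMP and above it in LSK, for Canx and P4hb wild-type CMP has the highest mean, and for Ppp1r15a wild-type CMP has the lowest.

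Within CMP, 0 of 32 members passed between the genotypes in edgeR's test, against 0.589% of all 11722 genes. At an unadjusted p under 0.05, 8 were lower and 1 was higher in enhancer-null CMP, 25% and 3.13% of members, against 5.07% and 7.54% of all genes. DESeq2 called 5, with Canx, Pdia4, Phgdh and Shmt2 lower and Ppp1r15a higher, against 5.37% of all genes in either direction. The groups did not overlap for 12 members that were lower, 37.5% of those tested, against 12.9% of all genes, and for 1 that was higher, 3.13% against 10.8%. The median log2 fold change was -0.43 over the chaperones, with 14 of 15 below 0, -0.73 over the ATF4 targets, with 7 of 9 below 0, and -0.02 over all genes. In CMP the chaperones lay less far below wild type than the ATF4 targets, by 0.31. That order turned to -0.25 when enhancer-null CMP library 1 and wild-type CMP library 6 were both left out, a setting chosen after the data were seen, and it turned to -0.08 without enhancer-null CMP library 1 alone.

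Ppp1r15a had the smallest p of the members in CMP. It was at 303, 206 and 255 CPM in enhancer-null CMP, against 138, 109 and 112 CPM in wild-type CMP, with all enhancer-null libraries higher (log2 fold change 1.10, SE 0.210, adjusted p = 0.0817). Canx was at 764, 1044 and 891 CPM in enhancer-null CMP, against 1408, 1184 and 1432 CPM in wild-type CMP, all lower (-0.57, SE 0.148, adjusted p = 0.181). Pdia4, with its values given above, was also lower in every enhancer-null library (-0.67, SE 0.185, adjusted p = 0.207). Manf, a secreted ER stress protein, was at 135, 127 and 143 CPM in enhancer-null CMP, against 245, 171 and 192 CPM in wild-type CMP (-0.57, adjusted p = 0.292). Pdia6, Dnajb11 and Hyou1 were the other chaperones whose groups did not overlap, all lower in enhancer-null CMP. P4hb averaged 692 ± 132 CPM in enhancer-null CMP and 938 ± 102 CPM in wild-type CMP (SD, n = 3 each), with overlap. For Hspa5 the interval of 2 SE either side ran from -0.49 to 0.04, and for Pdia3 from -0.33 to 0.20, so that changes of 1 on the log2 scale lay outside both.

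All 4 serine and folate enzymes among the ATF4 targets were lower in enhancer-null CMP without overlap, and none passed the test. Phgdh was at 128, 162 and 303 CPM in enhancer-null CMP, against 414, 401 and 370.3 CPM in wild-type CMP, a log2 fold change of -0.98 (SE 0.314, adjusted p = 0.261). Shmt2 was at 164, 129 and 146 CPM in enhancer-null CMP, against 217, 232 and 257 CPM in wild-type CMP (-0.67, SE 0.184, adjusted p = 0.200). Every enhancer-null library lay below the wild-type libraries for both, and the same held for Psat1 at -0.84 (adjusted p = 0.387) and Mthfd2 at -0.92 (adjusted p = 0.418). Psat1 was at 42.7, 82.6 and 111 CPM in enhancer-null CMP, against 155, 135 and 135 CPM in wild-type CMP. Slc3a2 was lower without overlap at -0.47 (adjusted p = 0.626). Asns at 25.7, 160.1 and 80.1 CPM in enhancer-null CMP overlapped the wild-type values (-0.79, SE 0.566, adjusted p = 0.673). Sesn2, an inhibitor of growth signalling when leucine is short, was at 1.5, 16.2 and 33.8 CPM in enhancer-null CMP, against 7.52, 12.1 and 6.99 CPM in wild-type CMP, with overlap. Enhancer-null CMP library 1 was the lowest of the 6 CMP libraries for Asns, Psat1, Phgdh, Slc3a2 and Sesn2. It was also the lowest for the chaperones Hspa5, Hsp90b1, Canx, Dnajb11, Sdf2l1, Creld2 and Hyou1, though not for the remaining chaperones. The same held for Edem1, Sel1l, Syvn1 and Ern1, where it was the lowest as well.

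The sensors and transcription factors did not pass the test in CMP either. Ern1 was at 4.38, 5.78 and 9.72 CPM in enhancer-null CMP, against 12.5, 15.5 and 10.2 CPM in wild-type CMP, lower without overlap (log2 fold change -0.93, SE 0.887, adjusted p = 0.777). Atf4 was at 181, 124 and 118 CPM in enhancer-null CMP, against 166, 127 and 152 CPM in wild-type CMP, with overlap (-0.06, SE 0.236, adjusted p = 0.953). Xbp1 overlapped as well, at 289.7, 189.9 and 203 CPM in enhancer-null CMP, against 209.6, 209 and 203 CPM in wild-type CMP (0.14, SE 0.205, adjusted p = 0.858). Atf6 was at 5.65, 49.6 and 0.668 CPM in enhancer-null CMP, against 60.1, 75.2 and 10.2 CPM in wild-type CMP, a spread within groups that covers the difference (-1.37, SE 1.34, adjusted p = 0.782). Dnajb9 averaged 27.2 ± 0.914 CPM in enhancer-null CMP and 23.5 ± 4.64 CPM in wild-type CMP (SD, n = 3 each). The 4 degradation genes lay between -0.31 and -0.17 with overlap, and Edem1 ranged from 32.9 to 187 CPM among the enhancer-null libraries alone. Slc7a11, not tested, was at 0, 1.81 and 2.13 CPM in enhancer-null CMP, against 0.381, 0.167 and 0.259 CPM in wild-type CMP, with overlap, and Chac1 was at most 0.778 CPM in any of the 12 libraries.

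In LSK, 0 of 32 members passed between the genotypes, against 0.103% of all 11619 genes. At an unadjusted p under 0.05 there were 2, Pdia4 and Hyou1, both higher in enhancer-null LSK, 6.25% of members against 7.91% of all genes in either direction. DESeq2 called the same 2 genes, against 2.31% of all genes. The groups did not overlap for 3 members that were higher and 3 that were lower, 9.38% each, against 8.65% and 10.4% of all genes, which is near that background. The chaperone median was 0.15, with 12 of 15 above 0, the ATF4 target median -0.11 and the median of all genes -0.01. The chaperone median was higher than the ATF4 target median by 0.26.

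Pdia4 was at 243, 293 and 249 CPM in enhancer-null LSK, against 153, 125 and 171 CPM in wild-type LSK, higher without overlap (log2 fold change 0.83, SE 0.186, adjusted p = 0.237). Hyou1, with its values given above, was higher without overlap at 1.01 (SE 0.256, adjusted p = 0.317). Dnajb9 was lower without overlap, at 37.6, 49.98 and 28.6 CPM in enhancer-null LSK, against 67.9, 69.1 and 58.0 CPM in wild-type LSK (-0.72, SE 0.323, adjusted p = 0.641). Syvn1, the ubiquitin ligase of ER-associated degradation, was at 34.3, 30.9 and 41.2 CPM in enhancer-null LSK, against 45.7, 66.5 and 50.03 CPM in wild-type LSK (-0.58, adjusted p = 0.696). Slc3a2 was the third member that was lower without overlap (-0.45, adjusted p = 0.667). Atf4 was at 86.2, 169 and 143 CPM in enhancer-null LSK, against 228, 275 and 144 CPM in wild-type LSK, with overlap (-0.68, SE 0.325, adjusted p = 0.664). Ern1 was at 8.45, 4.98 and 14.0 CPM in enhancer-null LSK, against 12.9, 28.1 and 31.6 CPM in wild-type LSK (-1.38, SE 0.703, adjusted p = 0.683). Atf6 was at 35.3, 91.0 and 68.0 CPM in enhancer-null LSK, against 43.1, 0.210 and 32.4 CPM in wild-type LSK (1.39, SE 1.24, adjusted p = 0.826). Wild-type LSK library 6, with 3 counts of Atf6, was also the lowest LSK library for Dnajc3, Hsp90b1, Canx, Pdia4, Pdia6, Sdf2l1 and Mthfd2. It was not the lowest for the remaining chaperones, but its chaperone sum of 5218 CPM was the lowest of all libraries. Asns was at 0, 15.8 and 16.5 CPM in enhancer-null LSK, against 16.3, 35.2 and 22.4 CPM in wild-type LSK, with overlap by a narrow margin (-1.17, SE 1.47, adjusted p = 0.880). Canx and Hspa5 had intervals of 2 SE either side that ran from -0.18 to 0.33 and from -0.22 to 0.32.

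**Figure D5:**
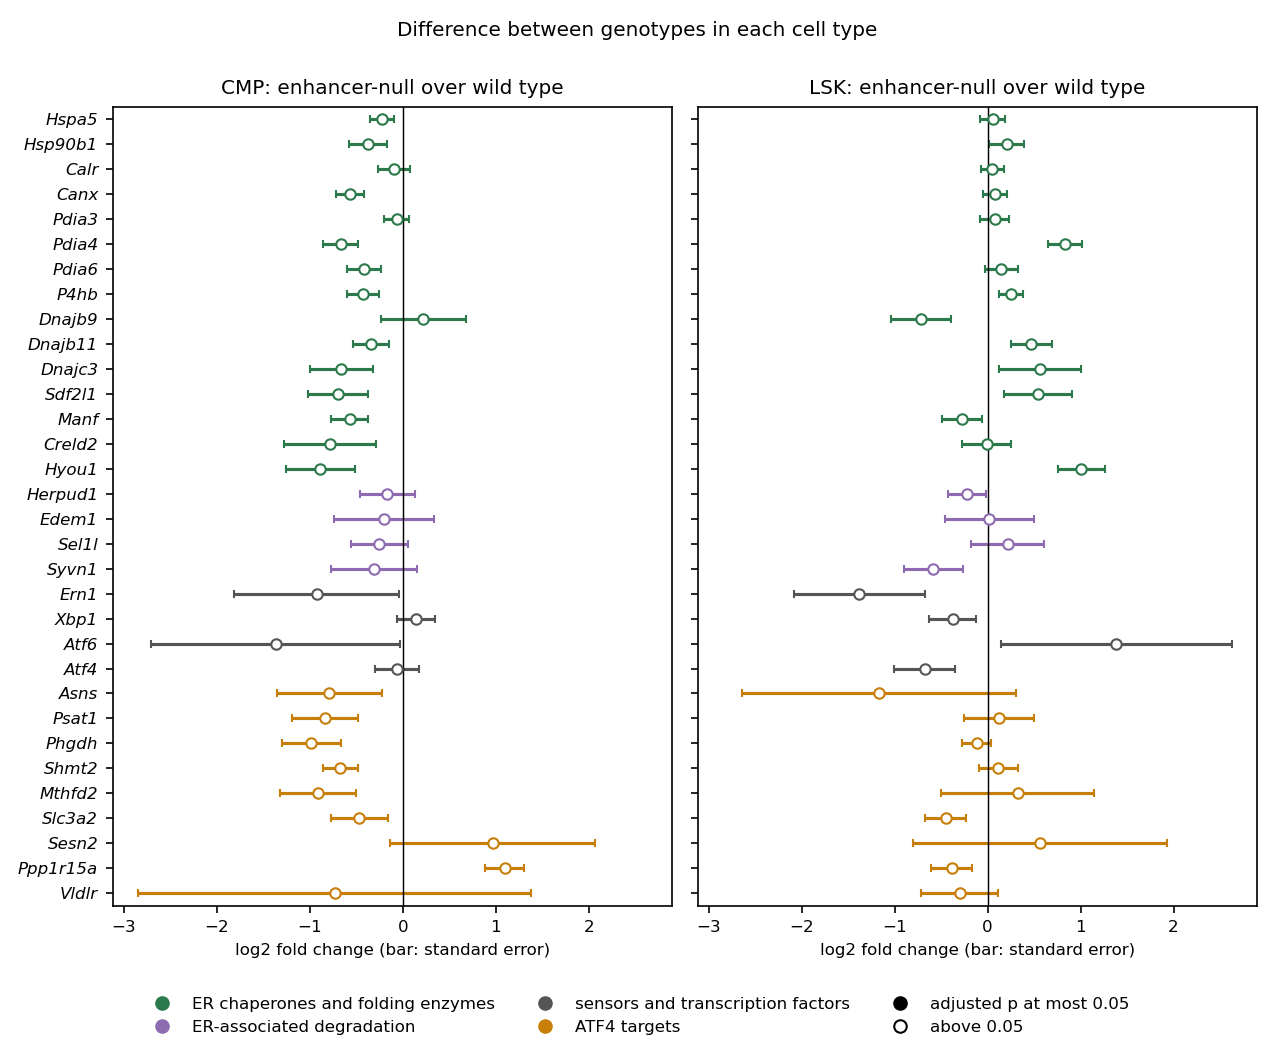
Log2 fold change of enhancer-null over wild type (x axis, bar: standard error) for the 32 tested members (rows) in CMP (left) and LSK (right), with filled points for an adjusted p of at most 0.05. No point is filled in either panel, and 14 of 15 chaperones lie below 0 in CMP while 12 of 15 lie above 0 in LSK.

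Several sets of cell type markers differed between the groups as well. The 9 genes listed for the CMP gate and myeloid progenitors, among them the granule genes Mpo, Elane and Prtn3, were all detected in every group. Their sum was 3367 to 4459.8 CPM in enhancer-null CMP and 5936 to 7213 CPM in wild-type CMP, and 3064 to 4138 CPM in enhancer-null LSK and 2338 to 2668 CPM in wild-type LSK. The LSK difference of this sum was carried by Mpo, at 1217 to 2296 CPM in enhancer-null LSK and 306 to 449 CPM in wild-type LSK. Prtn3 was at 99.0 to 165 CPM in enhancer-null LSK and 176 to 195 CPM in wild-type LSK, and Elane at 0.0201 to 11.6 and 11.7 to 86.0 CPM in the same order, both lower without overlap. In CMP, Kit of this list went against the sum, at 476 to 709 CPM in enhancer-null and 258 to 423 CPM in wild-type libraries. Fcgr3 did so too, at 18.3 to 21.6 and 0.259 to 8.48 CPM in the same order. The other genes of this list were lower in enhancer-null CMP without overlap. The 8 monocyte and macrophage genes summed to 45.5 to 215 CPM in enhancer-null CMP and 888 to 990 CPM in wild-type CMP, and to 103 to 148 CPM in enhancer-null LSK and 49.5 to 62.3 CPM in wild-type LSK, with Adgre1 and C1qa at 0 throughout enhancer-null CMP. The 10 mast cell and basophil genes summed to 1399.6 to 1765 CPM in enhancer-null CMP and 57.9 to 263 CPM in wild-type CMP, and to 322 to 678 CPM in enhancer-null LSK and 7.76 to 20.2 CPM in wild-type LSK, with 4 of the 10 at 0 throughout enhancer-null CMP. Cpa3, at 903 to 1322 CPM, and Gzmb, at 270 to 651 CPM, made up most of that sum in enhancer-null CMP. Hdc went the other way, at 0.577 to 1.46 CPM in enhancer-null CMP and 14.7 to 23.0 CPM in wild-type CMP, and Ms4a2 had medians of 0.577 CPM in enhancer-null CMP and 12.7 CPM in wild-type CMP. The 8 erythroid genes summed to 576 to 2110.0 CPM in enhancer-null CMP and 1365 to 1559 CPM in wild-type CMP, and to 41.8 to 103 CPM in enhancer-null LSK and 4.61 to 79.3 CPM in wild-type LSK. The 9 genes of the LSK gate and stem cells summed to 897 to 1222 CPM in enhancer-null CMP and 1539 to 1754 CPM in wild-type CMP, and to 2343 to 2610 CPM in enhancer-null LSK and 3442 to 3778 CPM in wild-type LSK. Kit, also in this list, again went against the sum in CMP. Cd34, at 275 to 465 CPM in enhancer-null CMP and 740 to 902 CPM in wild-type CMP, and Flt3 were lower without overlap. The 8 late neutrophil genes summed to 3.81 to 27.2 CPM in enhancer-null CMP and 25.9 to 2099 CPM in wild-type CMP, and to 7.22 to 26.8 CPM in enhancer-null LSK and 125 to 1346 CPM in wild-type LSK. The 8 T and NK cell genes summed to 257 to 425 CPM in enhancer-null CMP and 76.3 to 146 CPM in wild-type CMP, and to 341 to 384 CPM in enhancer-null LSK and 143 to 233 CPM in wild-type LSK, while Cd3e was at most 1.4 CPM in any library. Nkg7, at 197 to 319 CPM, and Lat, at 59.0 to 105 CPM, made up most of it in enhancer-null CMP. The 6 megakaryocyte genes summed to 112 to 241 CPM in enhancer-null CMP and 68.3 to 98.7 CPM in wild-type CMP. In LSK they summed to 131 to 146 CPM in enhancer-null and 55.9 to 65.4 CPM in wild-type libraries. Itga2b, at 94.7 to 230 CPM, made up most of the sum in enhancer-null CMP, while Pf4 and Vwf were lower than in wild-type CMP without overlap. Plasma cells, which are rich in ER chaperones, gave 8 marker genes with a sum of 0 to 10.1 CPM in enhancer-null CMP and 25.2 to 31.9 CPM in wild-type CMP, and of 0.230 to 20.9 CPM in enhancer-null LSK and 47.7 to 115 CPM in wild-type LSK. In wild-type CMP, Sdc1 had the highest median of these plasma cell genes, at 24.1 CPM, followed by Irf4 at 0.947 CPM. The part of plasma cells or of the other cell types in the chaperone differences was not tested.

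Among further genes of these pathways, calls came in the wild-type comparison of CMP with LSK. Of 42 genes of ER import, glycosylation, oxidation and degradation, all tested, 4 were higher in wild-type CMP than wild-type LSK, 9.52% against 2.15% of all genes, and 38 were not called, with a median of 0.40. The 4 were Spcs3 of the signal peptidase (means of 450.2 CPM in wild-type CMP and 211 CPM in wild-type LSK, log2 fold change 1.15, adjusted p = 0.0138), Sec61a1 of the import channel (means of 346 and 180.0 CPM in the same order, 1.0, adjusted p = 0.0421), Rpn1 of the glycosylation complex (0.87, adjusted p = 0.0450) and Derl1 of ER-associated degradation (0.90, adjusted p = 0.0328). Of 29 further genes of ATF4 and the integrated stress response, 25 were tested, the median was -0.34, and Trib3, a pseudokinase that dampens ATF4 output, passed as lower in CMP, 1 of 25 against 2.05% of all genes. Trib3 was at 0.571, 0.223 and 0.388 CPM in wild-type CMP, against 13.7, 24.9 and 15 CPM in wild-type LSK (-5.42, SE 0.987, adjusted p = 0.0282). In enhancer-null mice it was near 0 in both cell types, at 0.115, 0 and 0 CPM in CMP and 0, 0 and 0.0201 CPM in LSK. In the genotype, enhancer-null and interaction comparisons the smallest adjusted p of either list in edgeR's test was 0.0784, for Trib3 between the genotypes in LSK.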

How the data were processed

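Per the labels' protocols, total RNA of the sorted cells was amplified with the SMARTer Ultra Low kit, and both ends were read for 75 bp. The authors deposited raw counts of reads per gene, 1 file for each of 12 libraries. The submitters' processing notes name mm10, HTSeq, Bowtie, TopHat and TopHat2 2.0.4. Which annotation, counting mode and strand setting were used is not given in the sources used here, and reads of near-identical gene copies could not be told apart. Files were joined on 22779 identical symbols and 604 symbols linked as older names by the RefSeq table (GRCm38.p6). Rows that name no gene held 37.2% to 46.9% of counts and were left out. Replicate libraries differed beyond sampling noise (chi-square per degree of freedom 43.1 to 183), so each entered as 1 replicate.

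The quasi-likelihood test of edgeR 4.0.16 in R 4.3.3 (trimmed mean of M values scaling, default filter with a minimum count of 10, only the libraries of the groups compared) was run over all genes that passed the filter, with Benjamini-Hochberg adjustment at 0.05. The interaction used all 12 libraries. DESeq2 1.42.0 was an alternative, and the scripts were tested on simulated data. The median over a list was compared with the median over all genes, with no test of the list. All 34 members were tested or are named as not tested, but not each is named in every comparison. Values by library are given for members past the threshold in the comparison where they passed. They are also given for many members with extreme fold changes and, in part, for the main regulators. Other pathway genes are named where they passed. The members and lists were chosen with earlier results of these data known. Amplified reads carry no molecular identifiers, so floors cover counting error only.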

Additional observations from a re-analysis of the deposited data

Results flagged for a closer look

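For Pdia4, Dnajb11 and Hyou1, every enhancer-null library was lower than every wild-type library in CMP, and every enhancer-null library was higher than every wild-type library in LSK. This arrangement was itself the rule by which Dnajb11 and Hyou1 were flagged. Taken singly, 12.9% of all genes were lower without overlap in CMP and 8.65% were higher in LSK. The share of all genes with both was not counted. The interaction, the genotype difference in CMP minus that in LSK, was -1.47 on the log2 scale for Pdia4 and passed edgeR's test (adjusted p = 0.0356). It was -0.78 for Dnajb11 (adjusted p = 0.489) and -1.86 for Hyou1 (adjusted p = 0.207), which did not pass. DESeq2 called Pdia4 (adjusted p = 1.86e-05) and Hyou1 (adjusted p = 0.0152) in the same contrast. No member had a single library standing apart in a way that could be tested, because groups of 3 are too small.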

How the results depend on the processing

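No value changed sign while called. Beside the main counts of members past the threshold, DESeq2 called 5 in CMP between genotypes (629 of all genes, against 69), 2 in LSK (268 against 12), 15 in the wild-type step of CMP over LSK (1609 against 505), 1 in the enhancer-null step (205 against 0) and 3 in the interaction (186 against 37). Without a filter on low counts, CMP gave 1 (270 of all genes), LSK 39 of all genes, the enhancer-null step 9 of all genes and the interaction 2 (68 of all genes). One fit of all 12 libraries gave 1 in CMP (232 of all genes), 26 of all genes in LSK and 37 in the enhancer-null step, and in the wild-type step 8 members without Asns. Sex as a covariate gave 0 in the interaction, 5 in the wild-type step without Pdia4 and Dnajb9, and 31, 3 and 285 of all genes in CMP, LSK and the wild-type step. Leaving out each library in turn gave 0 to 1 members in CMP, 0 to 13 in the wild-type step and 0 to 1 in the interaction, with 7 to 92, 54 to 880 and 12 to 107 of all genes, and 1 to 21 in LSK. The 1 member in CMP was Phgdh, without enhancer-null CMP library 7. The chaperone median minus the ATF4 target median then ran from -0.08 to 0.52 in CMP, 0.10 to 0.54 in the wild-type step and -0.97 to 0.12 in the interaction (-0.25 in the main fit). With 2 doubted libraries left out, chosen after the data were seen, it was -0.25 in CMP, and the wild-type step gave 3 members (195 of all genes, and 12 in CMP). The causes were not tested.

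Library numbers are shared between cell types. Sex-linked counts matched in all 6 same-numbered pairs, while deviations of same-numbered libraries correlated at only -0.05 to 0.11, and the labels do not say whether a number marks a mouse. With the replicate block, the wild-type step gave 3 members (132 of all genes), the interaction 0, without Pdia4 (7 of all genes) and the enhancer-null step 0. The genotype groups share only number 1, and no paired analysis was possible because 1 shared number cannot pair 3 libraries. At a depth of 6157633 to 49056415 counts, 6 members had 3 counts or fewer in at least 1 library (Chac1, Slc7a11, Vldlr, Asns, Sesn2 and Atf6).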

Other observations

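Genes of protein synthesis and folding outside the ER lay on the same side as the ER chaperones in the wild-type comparison of CMP with LSK. All 12 cytosolic aminoacyl-tRNA synthetases, which load amino acids onto tRNA, had log2 fold changes above 0 (median 0.85, range 0.19 to 1.47), against a median of -0.01 over all genes. Sars, the seryl-tRNA synthetase, passed edgeR's test at 0.94 (adjusted p = 0.0342), 1 of 12 against 2.15% of all genes. It was at 141, 155 and 159.8 CPM in wild-type CMP, against 81.7, 76.2 and 89.0 CPM in wild-type LSK, without overlap. In enhancer-null mice the median of these synthetases between CMP and LSK was 0.13, with 8 of 12 above 0, and in the interaction all 12 lay below 0 (median -0.34, smallest adjusted p = 0.630). The difference between the genotypes was therefore not shown for any of them.

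Of 20 cytosolic and mitochondrial chaperones, 19 were tested, and 17 lay above 0 in wild-type CMP over wild-type LSK (median 0.50). Hspd1, the mitochondrial chaperonin, Hspa8, the constitutive cytosolic HSP70, and Hspa4, its exchange factor, rose at 1.01, 0.54 and 0.80 (adjusted p = 0.0125, 0.0182 and 0.0457 in edgeR's test), 3 of 19 against 2.15% of all genes. Hspd1 was at 1260, 1048 and 1342 CPM in wild-type CMP, against 614, 589 and 685 CPM in wild-type LSK. Between the genotypes in CMP, 16 of these 19 lay below 0 (median -0.37), and none passed edgeR's test (smallest adjusted p = 0.151). At an unadjusted p under 0.05, 8 of the 19 were lower, against 5.07% of all genes. The groups did not overlap for 7 that were lower, 36.8% against 12.9% of all genes. Hspa8 was at 5050, 6074 and 6302 CPM in enhancer-null CMP, against 8390, 7307 and 8169 CPM in wild-type CMP, lower without overlap (log2 fold change -0.44, SE 0.107, adjusted p = 0.151). In the interaction, 18 of the 19 lay below 0 (median -0.30), as most ER chaperones did, and none passed edgeR's test (smallest adjusted p = 0.247).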
